A study of Mus musculus with 24 samples.

Results

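Irf4 and Irf8, which encode interferon regulatory factors 4 and 8, were followed through the first 4 h of restimulation of mouse Th1 effector cells. They are 2 of the 9420 genes in the deposited table and were found there by their Ensembl identifiers. Irf4 (ENSMUSG00000021356) lies on the plus strand of chromosome 13, from 30749226 to 30766976 on GRCm38. Irf8 (ENSMUSG00000041515) lies on the plus strand of chromosome 8, from 120736358 to 120756694. Both are protein coding in GENCODE M21, with merged coding lengths of 1350 bases for Irf4 and 1272 bases for Irf8.

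The cells were DO11.10 CD4+ T cells, isolated with CD4 beads and labelled as Th1 effector cells, and DO11.10 mice carry a transgenic T cell receptor. The unstimulated cells (0 h) and the restimulated cells share this strain and cell type. The stimulus combined 1 µg/ml of anti-CD3 with anti-CD28 at 2.5 µg/ml, on plates that carried an antibody to hamster immunoglobulin, and stands in for antigen and costimulation. New RNA was captured after labelling with 4-thiouridine (4sU), which cells build into RNA as they make it. With 1 h of label at 200 µM, the times 0, 1 and 4 h have a pair of libraries, and 2 and 3 h have a single library. A further pair of libraries had 0.5 h of label at 500 µM, with 1 library at 0 h and 1 at 0.5 h. For total RNA the times 0 and 4 h are paired, while 1 h (replicate 2) and 2 h (replicate 1) are single. Ribosome footprints (ribosome profiling, RP), the mRNA stretches covered by ribosomes, are paired at 0, 1 and 4 h and single at 0.5 and 2 h (replicate 1). Whether the 2 replicates are separate mice or cultures, or pools of mice, is not given in the labels, and every p-value therefore reflects the spread among these libraries alone.

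Interferon regulatory factors bind DNA through a conserved domain at their amino end, and most of them carry interferon or pathogen signals. IRF4 and IRF8 are the closely related pair of this family made mainly in blood cells. Each binds DNA weakly alone, and they act with partners at composite sites, such as PU.1 or SPI-B in myeloid and B cells and BATF with a JUN protein in T cells. In T cells IRF4 is known to follow the strength of the receptor signal and to be needed for expansion and effector functions. IRF8 is best known for the development of dendritic cells and monocytes and for B cells, and as a gene that interferon gamma induces.

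The promoters of the 2 genes are shown because both genes rose after the same stimulus. The 250 bases before each start site were read from the RefSeq promoter table (GRCm38.p6), at chr13:30748983-30749232 for Irf4 and at chr8:120736108-120736357 for Irf8, both on the plus strand. For Irf8 the table holds 2 start sites, and the one at the annotated start of the gene was taken. The Irf4 window ends at 30749232, a few bases past the GENCODE start of the gene at 30749226. Distances for Irf4 are therefore counted from the start site of the promoter table. Capitals mark matches to any of 9 motifs, searched on both strands, and GC content is 63.6% for Irf4 and 67.2% for Irf8, against a median of 52.4% over all promoter windows.
Irf4 promoter: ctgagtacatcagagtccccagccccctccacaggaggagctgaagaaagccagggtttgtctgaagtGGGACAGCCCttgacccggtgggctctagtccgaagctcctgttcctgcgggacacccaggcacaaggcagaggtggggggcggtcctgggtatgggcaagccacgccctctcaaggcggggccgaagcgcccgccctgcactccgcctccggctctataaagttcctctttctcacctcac
Irf8 promoter: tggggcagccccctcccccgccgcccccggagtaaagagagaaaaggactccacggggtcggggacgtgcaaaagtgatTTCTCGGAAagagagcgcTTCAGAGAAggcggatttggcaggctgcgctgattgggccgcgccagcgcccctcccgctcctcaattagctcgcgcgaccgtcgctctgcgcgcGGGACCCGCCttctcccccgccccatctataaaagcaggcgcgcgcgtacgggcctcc
The Irf8 promoter held 2 matches to the STAT element (GAS, TTCNNNGAA), TTCTCGGAA at 171 to 163 bases and TTCAGAGAA at 153 to 145 bases before the start. At least 1 such match occurs in 7.02% of the 32851 promoters of the table, and the Irf4 promoter held none. Each promoter held 1 match to a loose NF-kB element (GGGA, any 4 bases, CC), which 17.6% of promoters hold. It was GGGACAGCCC at 182 to 173 bases in Irf4 and GGGACCCGCC at 58 to 49 bases in Irf8. Neither window held the IRF dimer element (ISRE core: GAAA, any 2 bases, GAAA), present in 2.98% of promoters, or the ETS-IRF element (GGAA, any 2 bases, GAAA), present in 2.30%. Neither held the spaced AP-1-IRF element (TTTC, any 4 bases, TGANTCA), the adjoining one (GAAA directly before TGANTCA), AP-1 itself (TGANTCA), NFAT (GGAAAA) or EGR (GCGNGGGCG), which 0.0974%, 0.10%, 6.75%, 20.4% and 4.70% of promoters hold. The ISRE and ETS-IRF forms overlap in letters, as do the 3 forms that hold the AP-1 letters. These matches describe letters and not binding.

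Levels are in FPKM, fragments per kilobase of gene length scaled to the mapped fragments, which hide the depth. Steps between small values gave the depth of 6 of the 24 libraries. They matched exon length and 4.87 M reads in replicate 2 of total RNA at 0 h, and coding length and 8.86 to 20.1 M reads in 5 footprint libraries. In these 6 libraries the values of Irf4 stood for 1558 to 24319 reads and those of Irf8 for 278 to 7563 reads, so that counting error was at most 6.0% of a value there. The lowest values of both genes, at 42.86 FPKM for Irf4 and 7.89 FPKM for Irf8, were in total RNA at 0 h. Replicates of a group correlated across genes at 0.945 to 0.967 on the log scale. Defining T cell genes were present throughout, with Cd3e from 32.8 to 95.5 FPKM in the RNA libraries. In total RNA at 0 h Cd4 stood at 127 and 82.4 FPKM in replicates 1 and 2, beside Cd8a at 23.5 and 3.78 FPKM. At 4 h Cd4 stood at 80.7 and 97.7 FPKM there and Cd8a at 38.8 and 11.3 FPKM. Of the 18 dendritic cell and macrophage markers 6 were in the table: Cd74, H2-Aa, H2-Ab1, H2-Eb1, Fcer1g and Cd68. Genes such as Csf1r, Flt3 and Lyz2 were not, so the sum of these 6 does not identify a cell type. Of the 9 B cell markers 6 were in the table. The summed level of these 6 B cell markers was 16.2 FPKM in total RNA 0 h replicate 1 and 3.51 FPKM in replicate 2, and that of the 6 dendritic cell and macrophage markers was 78.2 and 25.6 FPKM. The 6 CD8 T cell markers summed to 317 and 23.1 FPKM in the same libraries, so all 3 marker sums were higher in replicate 1. The B cell factor Pax5 and the dendritic cell genes Xcr1, Clec9a and Itgax were not in the table. Every gene in the table reached at least 0.97 FPKM in some library of 1 h label and of total RNA, and 0.99 FPKM in some footprint library. A gene may thus be missing for a low level in a single kind, and absence from the table does not show absence of expression.

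Before restimulation Irf4 was already among the most highly labelled transcripts, while new RNA of Irf8 lay nearer the middle of the table. New RNA of Irf4 stood at 127 and 234 FPKM in replicates 1 and 2, above 97.5% and 98.8% of the genes in those libraries. New RNA of Irf8 stood at 18.8 and 13.4 FPKM, above 65.8% and 52.9% of the genes. In total RNA Irf4 stood at 42.9 and 65.3 FPKM and Irf8 at 7.89 and 8.10 FPKM. The replicates of Irf4 thus differed more than those of Irf8, by 0.60 against 0.03 on the log2 scale in total RNA. Footprints of Irf4 stood at 149.7 and 246 FPKM and those of Irf8 at 64.1 and 67.1 FPKM. These footprint levels were above 89.6% and 93.3% of the genes for Irf4 and above 77.3% and 77.7% for Irf8. Irf4 was lower in replicate 1 in all 3 kinds of library at 0 h. The ratio of new to total RNA, which relates synthesis to the pool, was 2.96 and 3.58 for Irf4, against medians of 1.45 and 1.59 over all genes. For Irf8 it was 2.39 and 1.65, so that only replicate 1 lay clearly above the median gene.

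**Figure D1:**
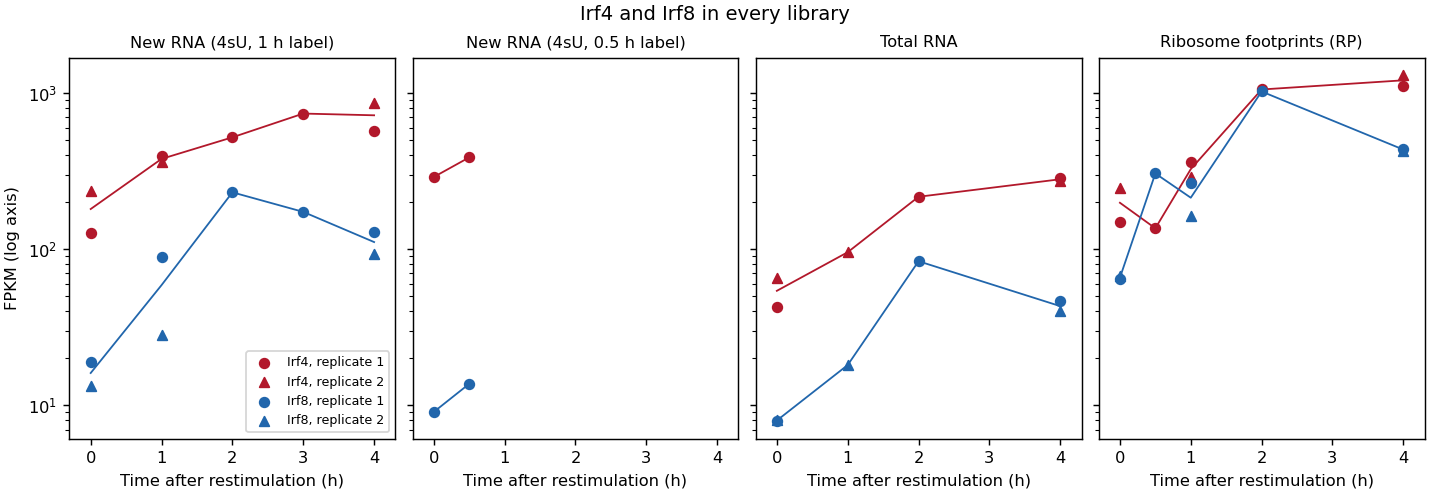
FPKM (log axis) of Irf4 and Irf8 by hours after restimulation in all 24 libraries, 1 panel for each kind of library, with circles for replicate 1, triangles for replicate 2 (the short-label libraries have 1 replicate each) and lines through the mean at each time. Irf4 climbs to 3 or 4 h, while Irf8 is highest at 2 h in new RNA, total RNA and footprints, where it stands at 231, 83.65 and 1021 FPKM.

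Newly made RNA of both genes was severalfold higher at 4 h than at 0 h. In these bulk samples more cells that express a gene and more RNA per cell cannot be told apart. In replicate 1 new RNA of Irf8 stood at 18.8, 89.55, 231, 173 and 128 FPKM at 0, 1, 2, 3 and 4 h. In replicate 2 it stood at 13.4, 28.1 and 93.5 FPKM at 0, 1 and 4 h. All libraries after restimulation were above both 0 h libraries, and the highest value was that at 2 h. At 4 h the change of Irf8 was 2.71 ± 0.53 SE on the scale of log2(FPKM + 1), and it passed the test (limma, adjusted p = 0.0127), as 14.4% of the 9278 genes tested did in the upward direction. It rested on single libraries, with adjusted p = 0.0669 by limma when 4sU 4 h replicate 1 was left out and 0.0690 when 4sU 0 h replicate 2 was. The changes at 2 h (3.78 ± 0.64 SE, adjusted p = 0.0338) and 3 h (3.37 ± 0.64 SE, adjusted p = 0.0218) passed with limma too, beside 3.87% and 9.41% of all genes called higher. Each of these times has 1 library, of replicate 1. Neither call held without 1 of the 0 h libraries, since limma then gave adjusted p = 0.126 and 0.141 at 2 h and 0.0652 and 0.0913 at 3 h, for leaving out replicate 1 and replicate 2.

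New RNA of Irf4 stood at 127, 395, 519.6, 737 and 570.1 FPKM at 0, 1, 2, 3 and 4 h in replicate 1. In replicate 2 it stood at 234, 361 and 867 FPKM at 0, 1 and 4 h. Both 4 h libraries were above both 0 h libraries, and the order of the replicates at 4 h was that at 0 h. Limma gave a change of 2.02 ± 0.43 SE at 4 h (adjusted p = 0.0164) and of 2.09 ± 0.53 SE at 3 h (adjusted p = 0.0418). At 2 h the change was 1.59 ± 0.53 SE and passed only with the replicate number as a block (limma, adjusted p = 0.109, 0.0114 with the block), which called 13.3% of genes higher. The call at 4 h was lost without 4sU 0 h replicate 1 (limma, adjusted p = 0.116) and, leaving out 4sU 4 h replicate 2, narrowly (0.0501). At 3 h it was lost without 4sU 0 h replicate 1 (0.164) or replicate 2 (0.0986).

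At 1 h new RNA of Irf8 had changed by 1.60 ± 0.53 SE and that of Irf4 by 1.13 ± 0.43 SE. Neither passed with limma (adjusted p = 0.286 and 0.345), a comparison in which 0.183% of genes were called higher. With the replicate block Irf8 passed (adjusted p = 0.0180) and Irf4 did not (0.0512), and 5.21% of genes were called higher. The replicates of Irf8 at 1 h were 89.55 and 28.1 FPKM, a difference of 1.64 on the log2 scale that was larger than that of 98.8% of genes. Beside it, Ifng, the Th1 cytokine, stood at 5211 and 737 FPKM in the same libraries. The summed dendritic cell and macrophage markers stood at 38.0 and 23.6 FPKM there, the B cell markers at 12.7 and 4.38 FPKM, and the CD8 T cell markers at 134 and 23.3 FPKM. The part of these in the difference was not tested. From 1 to 4 h the change was 0.90 ± 0.43 SE for Irf4 and 1.11 ± 0.53 SE for Irf8 (limma, adjusted p = 0.166 and 0.162, 0.0341 and 0.0125 with the block), while 11.9% of genes were called higher, and 22% with the block. Without 4sU 1 h replicate 1 the change of Irf8 was 1.93 and passed (limma, adjusted p = 0.0311).

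The short-label libraries cover the first 0.5 h, with 1 library at each time and no replicate check. Irf4 went from 289 to 386 FPKM between 0 and 0.5 h, a difference of 0.42 on the log2 scale. Irf8 stood at 9.07 and 13.7 FPKM, a difference of 0.55. Of the 7155 genes with a mean of at least 5 FPKM, 8.13% differed upward by as much as Irf4 or more and 4.07% by as much as Irf8 or more. Neither gene reached the 2-fold difference that 0.755% of these genes passed. The dendritic cell and macrophage markers summed to 16.2 and 22.3 FPKM in these libraries, and their part in the small difference of Irf8 was not tested.

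Total RNA, the pool that synthesis and decay leave, rose for both genes by about the same amount at 4 h. For Irf4 the values were 42.9 and 65.3 at 0 h, 95.5 at 1 h, 216 at 2 h, and 287 and 273 FPKM at 4 h. For Irf8 they were 7.89 and 8.10 at 0 h, 18.1 at 1 h, 83.65 at 2 h, and 46.35 and 39.95 FPKM at 4 h. No library after restimulation fell within the range of the 0 h libraries for either gene. At 4 h limma gave 2.38 ± 0.28 SE for Irf4 (adjusted p = 0.00795) and 2.29 ± 0.22 SE for Irf8 (adjusted p = 0.00474), and 6.47% of 9078 genes were called higher. The 2 changes ranked 68 and 81 among these genes. The call for Irf4 was lost without total RNA 4 h replicate 1 (limma, adjusted p = 0.0555).

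At 2 h total RNA of Irf8 had changed by 3.23 ± 0.27 SE (limma, adjusted p = 0.00767), rank 28 of all genes, and 0.958% of genes were called higher. Irf4 had changed by 2.01 ± 0.35 SE, which missed the threshold (limma, adjusted p = 0.0626, 1.24e-09 with the block, which called 5.33% of genes higher). The block leaves this fit of total RNA with 1 residual degree of freedom. At 1 h, in 1 library of replicate 2, the change was 1.09 ± 0.27 SE for Irf8 (limma, adjusted p = 0.177, 0.00422 with the block) and 0.84 ± 0.35 SE for Irf4 (limma, adjusted p = 0.369, 0.0911 with the block). Limma called 0 genes at 1 h (a share of 0%), with 1197 at an unadjusted p below 0.05, and with the block 1.43% were called higher.

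Ribosome footprints rose for both genes and stood at nearly the same level in the 1 library at 2 h. In replicate 1 footprints of Irf8 stood at 64.1, 305, 264, 1021 and 440.0 FPKM at 0, 0.5, 1, 2 and 4 h. In replicate 2 they stood at 67.1, 163 and 427 FPKM at 0, 1 and 4 h. Footprints of Irf4 stood at 149.7, 136, 359, 1051 and 1113 FPKM in replicate 1, and at 246, 291 and 1294 FPKM in replicate 2. Both genes were above all their 0 h values at 1, 2 and 4 h. At 0.5 h Irf8 was above its 0 h values while Irf4 was below both of its own.

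At 4 h footprints of Irf4 had changed by 2.64 ± 0.30 SE (limma, adjusted p = 0.00555) and those of Irf8 by 2.71 ± 0.27 SE (adjusted p = 0.0049), while 12.1% of 9312 genes were called higher. Both calls held without any 1 of the 4 libraries compared, with limma adjusted p up to 0.0447 for Irf4 and 0.0429 for Irf8. At 2 h the changes were 2.45 ± 0.37 SE for Irf4 (limma, adjusted p = 0.0325) and 3.94 ± 0.33 SE for Irf8 (adjusted p = 0.0151), with 2.96% of genes called higher. Without RP 0 h replicate 1 or replicate 2 neither of the 2 h calls held, at limma adjusted p = 0.0881 and 0.0770 for Irf4 and 0.0778 and 0.0689 for Irf8. At 1 h Irf8 had changed by 1.64 ± 0.27 SE (limma, adjusted p = 0.189, 0.0232 with the block) and Irf4 by 0.75 ± 0.30 SE (limma, adjusted p = 0.464, 0.159 with the block). Of all genes, 0.14% were called higher at 1 h, and 1.42% with the block.

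Footprints of Irf8 at 0.5 h, the earliest time measured, were 4.76 times their 0 h level in the same replicate. The change in this 1 library was 2.20 ± 0.33 SE and ranked 37 of 9312 genes, with an unadjusted p of 0.000573. It did not pass adjustment over all genes (limma, adjusted p = 0.507, 0.0920 with the block), and 0% of genes were called higher at 0.5 h, with 743 at an unadjusted p below 0.05 and 0.0322% called higher with the block. The value of 305 FPKM stood for about 7354 reads, against 1641 reads in the 0 h library of the same replicate. Footprints of Irf4 changed by -0.50 ± 0.37 SE (limma, adjusted p = 0.738). Summed dendritic cell and macrophage markers were at 371 and 389 FPKM in RP replicate 1 at 0 and 0.5 h, and B cell markers at 71.6 and 47.0 FPKM. Cd74 alone stood at 177 and 167 FPKM in the same libraries. Which cells these sums come from, and their part in the value of Irf8, was not tested. There is no total RNA library at 0.5 h.

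Between 1 and 4 h footprints of Irf4 rose by 1.89 ± 0.30 SE (limma, adjusted p = 0.0182), with 7.65% of genes called higher. The call was lost without any 1 of the 4 libraries, at limma adjusted p from 0.0725 to 0.10. Those of Irf8 changed by 1.06 ± 0.27 SE, which missed the threshold (limma, adjusted p = 0.0528, 0.0116 with the block, which called 17.5% of genes higher).

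**Figure D2:**
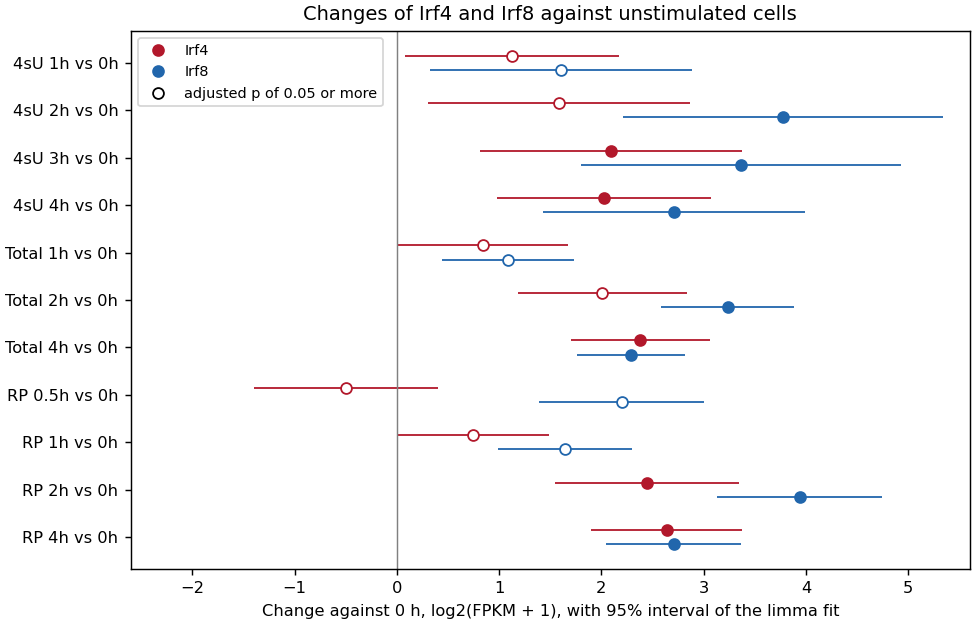
Change of Irf4 and Irf8 against 0 h on the log2(FPKM + 1) scale in each kind of library, with the 95% interval of the limma fit for that gene alone. Filled points have an adjusted p below 0.05 and open points do not. At 4 h the 6 changes lie between 2.02 and 2.71, and at 2 h those of Irf8 lie between 3.23 and 3.94.

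At 2 h each kind of library has 1 library, of replicate 1, so the course after 2 h is seen within replicate 1 alone. In new RNA, total RNA and footprints both 4 h values of Irf8 were below that 2 h value, at 128 and 93.5 against 231 FPKM in new RNA, at 46.35 and 39.95 against 83.65 FPKM in total RNA, and at 440.0 and 427 against 1021 FPKM in footprints. Both 4 h values of Irf4 were above the 2 h value in the same kinds of library, at 570.1 and 867 against 519.6 FPKM, at 287 and 273 against 216 FPKM, and at 1113 and 1294 against 1051 FPKM. The change from 2 to 4 h, a comparison added after these values were seen, was -1.07 ± 0.64 SE for Irf8 in new RNA, -0.94 ± 0.27 SE in total RNA and -1.23 ± 0.33 SE in footprints. None passed with limma (adjusted p = 0.526, 0.464 and 0.156), and the share of genes called lower was 0%, 0% and 0.0107%. With the block the adjusted p was 0.282, 0.0414 and 0.0520, so that the change in total RNA passed, in a fit with 1 residual degree of freedom, as 4.2% of genes did downward. For Irf4 the changes were 0.44, 0.37 and 0.19, with limma adjusted p = 0.769, 0.784 and 0.806, and 0%, 0% and 0.043% of genes were called higher. Whether the 2 genes differed from each other in this change was not tested. The order of the times for Irf8 was 2 h, then 3 h, then 4 h, then 1 h, then 0 h in new RNA of replicate 1. New RNA of Irf4 in replicate 1 stood at 519.6, 737 and 570.1 FPKM at 2, 3 and 4 h. The 3 h value lay between the 2 libraries at 4 h (719 ± 210 FPKM, SD, n = 2), and the 2 h value lay below both.

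Relative to Irf4, Irf8 was most abundant at 2 h in RNA and at 0.5 h in footprints, times that only replicate 1 has. In replicate 2 the ratio of Irf4 to Irf8 was lowest at 4 h in new RNA and at 1 h in total RNA and footprints. Within total RNA libraries the ratio of Irf4 to Irf8 FPKM was 5.43 and 8.06 at 0 h, 5.27 at 1 h, 2.59 at 2 h and 6.19 and 6.84 at 4 h. The 4 h ratios lay between those at 0 h. In new RNA of replicate 1 the ratio was 6.74, 4.42, 2.25, 4.26 and 4.44 at 0, 1, 2, 3 and 4 h, and in replicate 2 it was 17.5, 12.8 and 9.28 at 0, 1 and 4 h. It was lower at 1 and 4 h than at 0 h in both replicates, yet each value of replicate 2 was above all those of replicate 1. In footprints of replicate 1 it was 2.34, 0.446, 1.36, 1.03 and 2.53 at 0, 0.5, 1, 2 and 4 h, and in replicate 2 it was 3.67, 1.79 and 3.03. The library at 0.5 h was the only 1 of the 24 in which Irf8 exceeded Irf4. These ratios are per length, and the lengths behind the FPKM of RNA and of footprints may differ (the merged exons of GENCODE M21 span 4903 bases for Irf4 and 7055 bases for Irf8), so the ratio is compared over time within a kind of library and not between kinds.

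**Figure D3:**
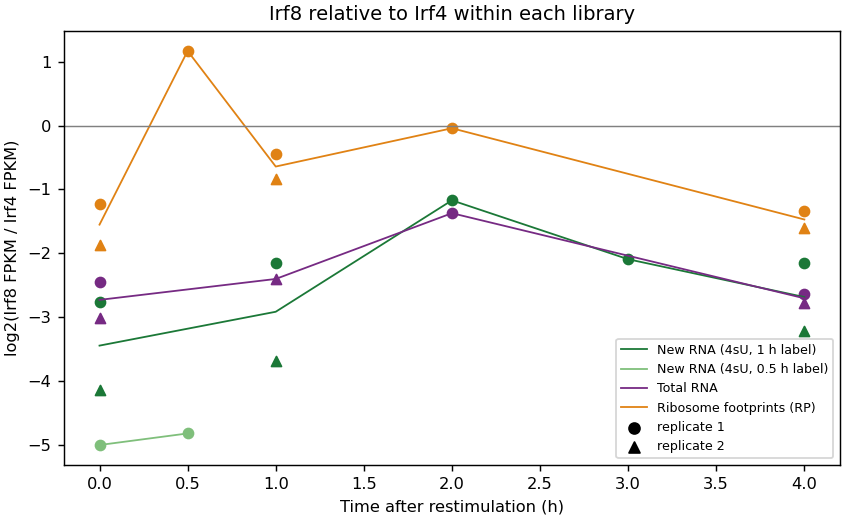
log2 of Irf8 FPKM over Irf4 FPKM within each library, by hours after restimulation, with 1 colour for each kind of library, circles for replicate 1, triangles for replicate 2 and lines through the means. Values above 0 have more Irf8 than Irf4; the footprint library at 0.5 h stands at 1.17, and the lowest value, -5.00, is that of the short label at 0 h.

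Differences between the kinds of library in the size of the change were within the error of the fit for both genes. At 4 h the change of footprints minus that of total RNA was 0.26 for Irf4, with a 95% interval from -0.72 to 1.24, and 0.41 for Irf8, from -0.35 to 1.18 (limma interaction, adjusted p = 1.00 for both). New RNA minus total RNA was -0.36 for Irf4 (-1.52 to 0.80) and 0.42 for Irf8 (-1.04 to 1.88), with limma adjusted p = 0.953 and 0.960. New RNA minus footprints was -0.62 for Irf4 (-1.79 to 0.56) and 0.01 for Irf8 (-1.46 to 1.47) at 4 h, with limma adjusted p = 0.882 and 0.998. At 1 h it was 0.38 for Irf4 (-0.80 to 1.55) and -0.04 for Irf8 (-1.51 to 1.43), with limma adjusted p = 1.00 for both. These intervals leave room for differences of more than 2-fold. Limma called 0 genes (0%) in each of these 4 comparisons, with 241, 526, 633 and 227 genes at an unadjusted p below 0.05 in this order, and with the block it called 3, 178, 6 and 0 genes (0.0333%, 1.97%, 0.0653% and 0%).

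Set against total RNA of the same time and replicate, footprints of both genes changed by a factor below 2 while the levels themselves rose severalfold. The ratio of footprint to total RNA FPKM for Irf8 was 8.13, 12.2 and 9.49 at 0, 2 and 4 h in replicate 1 and 8.29, 8.99 and 10.7 at 0, 1 and 4 h in replicate 2. For Irf4 it was 3.49, 4.86 and 3.88 in replicate 1 and 3.77, 3.05 and 4.74 in replicate 2. The median over all genes stayed between 2.57 and 2.95. Because the 2 FPKM appear to use different lengths, the levels of this ratio are not compared between Irf4 and Irf8.

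The genes most like Irf4 and Irf8 over time were different ones. Likeness was Pearson's r over the 24 libraries of log2(FPKM + 1), centred within each kind of library, among 7797 genes, and it is a description, since the libraries share times and replicate numbers. Most like Irf4 were the costimulatory receptor Tnfrsf4 (r = 0.973), Srfbp1 (0.964), the cytokine Csf2 (0.960), the RNase P subunit Rpp38 (0.948) and the cytokine Il13 (0.948). Most like Irf8 were the syntaxin Stx11 (0.961), the G protein regulator Rgs1 (0.956), the small GTPase Gem (0.948), the kinase-like Stk40 (0.946) and the kinase Mapkapk2 (0.941). Irf4 and Irf8 themselves had r = 0.788, which placed Irf8 at rank 473 for Irf4 and Irf4 at rank 392 for Irf8. Gem, for example, stood at 5.48, 70.3, 195 and 61.6 FPKM in new RNA at 0, 1, 2 and 4 h (means where there were 2 libraries), and Tnfrsf4 at 170.2, 484, 1028 and 965 FPKM.

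Within the IRF family, no member other than Irf4 and Irf8 was called higher at 4 h in any kind of library, and Irf2 was called lower in all 3. The shares of all genes called higher and lower were 14.4% and 18.9% in new RNA, 6.47% and 7.02% in total RNA and 12.1% and 12.9% in footprints, so that counts of 0 and 1 among the 6 other members are near the background. Of the family, 8 members were in the table. Irf2, known as an antagonist of IRF1, went from 27.8 ± 2.58 to 12.3 ± 0.89 FPKM in new RNA (SD, n = 2), a change of -1.11 (limma, adjusted p = 0.0105). It changed by -1.13 in total RNA (adjusted p = 0.0296) and by -1.15 in footprints (adjusted p = 0.0162). Irf1, an early target of interferon gamma, stood at 226 ± 27.8, 333 ± 73.4 and 152 ± 25.2 FPKM in new RNA at 0, 1 and 4 h, with a change of -0.58 at 4 h (limma, adjusted p = 0.170, 0.0293 with the block). In the short-label libraries it went from 330.2 to 571 FPKM. Irf9, which acts in the type I interferon response, changed by -0.48 in new RNA, and Irf7 by -0.66. Irf3, which acts downstream of nucleic acid sensors, changed by 0.04 and Irf5 by 0.28. None of these 4 passed with limma in new RNA (adjusted p from 0.259 for Irf9 to 0.899 for Irf3). In footprints Irf1 changed by -0.78 and Irf9 by -0.81, and both passed only with the block (limma, adjusted p = 0.0967 and 0.111, 0.0202 and 0.0140 with the block). The median change of the 6 family members beside Irf4 and Irf8 was -0.53 in new RNA, against -0.16 over all genes.

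**Figure D4:**
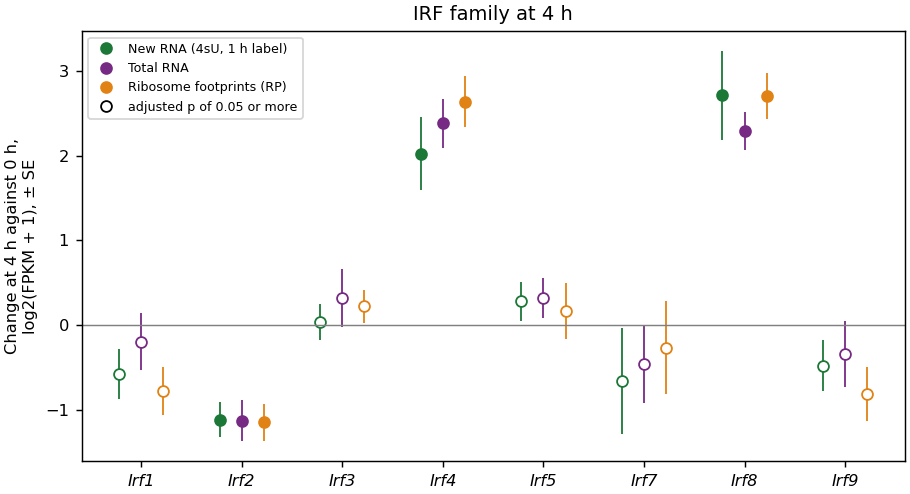
Change at 4 h against 0 h on the log2(FPKM + 1) scale for the 8 IRF family genes of the table, in new RNA, total RNA and footprints, with bars of 1 SE of the limma fit. Filled points have an adjusted p below 0.05. Irf4 and Irf8 lie between 2.02 and 2.71, Irf2 lies between -1.15 and -1.11, and the others are open.

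Of the factors known to bind DNA with IRF4 or IRF8, 10 were tested in new RNA at 4 h, and 3 were called higher and 1 lower (limma, against 14.4% and 18.9% of all genes), or 5 and 2 with the block (against 23.3% and 35.4%). The median was 0.54 against -0.16 over all genes. Batf3, an AP-1 factor that pairs with IRF4 or IRF8, changed by 3.25 (limma, adjusted p = 0.0454), and the AP-1 subunit Junb by 2.11 (adjusted p = 0.0045). New RNA of Batf3 was low at 0 h, at 0.37 and 1.79 FPKM, and its libraries at 4 h lay far apart, at 5.47 and 52.6 FPKM. Named after their values were seen, Etv6 rose by 0.98 and the Ikaros factor Ikzf3 fell by 0.98. Batf, the main partner of IRF4 in T cells, changed by 1.46 in new RNA (limma, adjusted p = 0.0908, 0.00017 with the block), by 1.49 in total RNA (adjusted p = 0.0377) and by 1.39 in footprints (adjusted p = 0.119). In total RNA 3 of 10 were called higher and 1 lower (all genes 6.47% and 7.02%), and in footprints 2 of 11 higher and 2 lower (all genes 12.1% and 12.9%). Spi1, which encodes PU.1, was not in the table, and Spib, which encodes the related SPI-B, stood at 0.11 to 2.93 FPKM in the RNA libraries.

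Of 18 genes between the T cell receptor or the interferon gamma receptor and Irf4 or Irf8, 3 were called higher and 3 lower in new RNA at 4 h against 14.4% and 18.9% of all genes. The block gave 5 higher and 4 lower, against 23.3% and 35.4% of all genes. Nfkb1, an NF-kB subunit, changed by 1.63 (limma, adjusted p = 0.00326) and the kinase Jak1 by -1.60 (adjusted p = 0.0146). Among the others called, and named after its values were seen, was Jak2, a kinase of cytokine receptors, which changed by 0.94 (limma, adjusted p = 0.0448). Rel, the NF-kB subunit known to act on the Irf4 promoter in lymphocytes, changed by 0.89 in new RNA (limma, adjusted p = 0.101, 0.0293 with the block) and by 1.77 in footprints (adjusted p = 0.0076).

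Of 20 genes reported to respond to IRF4 in T cells, 6 were called higher and 1 lower in new RNA at 4 h (all genes 14.4% and 18.9%), and 13 and 1 with the block (all genes 23.3% and 35.4%). The median was 0.83 against -0.16 over all genes. Il2, the T cell growth factor, changed by 3.83 (limma, adjusted p = 0.00164) and Gzmb, a killer protease, by 3.62 (adjusted p = 0.0162). The only one called lower was Bcl6, a repressor that IRF4 is known to restrain in B cells, with a change of -1.68 (limma, adjusted p = 0.0216). Prdm1, which encodes the repressor Blimp-1, changed by 0.66 (limma, adjusted p = 0.249, 0.00604 with the block). In total RNA 7 of the 20 were called higher and 0 lower (all genes 6.47% and 7.02%), and in footprints 5 higher and 1 lower (all genes 12.1% and 12.9%). Whether any of these genes depends on IRF4 was not tested.

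Of 23 other genes known to respond to interferon gamma, as Irf8 does, 4 were called higher and 3 lower in new RNA at 4 h (all genes 14.4% and 18.9%), and 6 and 6 with the block (all genes 23.3% and 35.4%). The median was -0.12 against -0.16 over all genes. Socs1, a feedback inhibitor of JAK kinases, changed by 2.62 (limma, adjusted p = 0.00286) and Cd274, which encodes PD-L1, by 1.92 (adjusted p = 0.0071). Among those called lower, and named after their values were seen, were the GTPase gene Gbp2 (-1.63) and the immunoproteasome subunit Psmb9 (-0.73). In total RNA 3 were called higher and 1 lower (all genes 6.47% and 7.02%), and in footprints 3 and 3 (all genes 12.1% and 12.9%).

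Markers of other cell types moved in both directions over the same 4 h, and their part in the changes of Irf4 and Irf8 was not tested. In new RNA of replicate 1 the summed dendritic cell and macrophage markers stood at 36.7 and 15.7 FPKM (0 and 4 h), and in replicate 2 at 16.6 and 16.8 FPKM. In total RNA they stood at 78.2 and 31.8 FPKM in replicate 1 and at 25.6 and 22.4 FPKM in replicate 2. The B cell markers stood at 22.2 and 2.04 FPKM in new RNA of replicate 1 and at 5.24 and 2.36 FPKM in replicate 2. In footprints the dendritic cell and macrophage markers stood at 371 and 133 FPKM in replicate 1 and at 137 and 99.6 FPKM in replicate 2. In new RNA at 4 h limma called 14.4% of all genes higher and 18.9% lower. It called 0 of the 6 dendritic cell and macrophage markers and 0 of the 2 B cell markers tested. With the block 3 and 2 were called lower, as 35.4% of all genes were. The 6 CD8 T cell markers summed to 145 and 266 FPKM at 0 and 4 h in new RNA of replicate 1 and to 19.4 and 86.7 FPKM in replicate 2. In total RNA they summed to 317 and 434 FPKM in replicate 1 and to 23.1 and 60.2 FPKM in replicate 2, so this sum was higher at 4 h in both replicates. Cd8a alone stood at 23.5 and 38.8 FPKM in total RNA of replicate 1 and at 3.78 and 11.3 FPKM in replicate 2. Most of the sum thus came from other genes of the list, and the sum does not identify a cell type. Of the 6, 1 was called higher in new RNA and 0 lower with limma, and 3 and 1 with the block. The defining genes Cd8a and Cd8b1 changed by 0.76 and -0.11 in new RNA (limma, adjusted p = 0.449 and 0.931, 0.00647 and 0.592 with the block), and the 1 called was Eomes, a transcription factor of killer cells, with 3.25 (adjusted p = 0.00392). These genes were named after their values were seen.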

How the data were processed

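The deposited FPKM values (2 decimals, 9420 genes, 24 libraries) were used as they stand. The authors' counts came from featureCounts (Subread 1.4.6-p3) and the GRCm38 build, per the submitters' processing notes. For the aligner, annotation, gene lengths, strand setting and gene selection, nothing is given in the sources used here. Of the identifiers, 9412 matched a GENCODE M21 symbol. For tests, log2(FPKM + 1) went into limma 3.58.1 (R 4.3.3), with a variance trend and Benjamini-Hochberg adjustment over all genes tested (threshold 0.05). Each kind of library was fitted alone, over genes with a mean of at least 1 FPKM, and differences between kinds as interactions. Times with 1 library borrow the spread of the replicated times. The pseudocount shrinks changes of low values. Values are relative to each library's total, so RNA per cell is not seen. The fit was tested on simulated data.

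Same-numbered libraries deviated together (correlations from 0.307 to 0.790 over all 28 pairs of the 8 replicated groups), so the numbers were taken to pair libraries, from these data and not from the labels. The fit without the block is given, with the blocked value where it changes a call. Depth was read from values worth 1 to 8 reads, whole to within 0.1 read. Named genes were Irf4 and Irf8, the IRF family, the 5 genes most like each by r, and the 2 called genes of each list with the largest change in new RNA at 4 h, while Batf, Rel, Prdm1, Spib, Ifng and other genes said to be so were chosen after their values were seen. The genes and lists were chosen with earlier results of these data known. Results for a few single genes of the lists are left out. Protein sequences were not used here.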

Additional observations from a re-analysis of the deposited data

How the results depend on the processing

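Of 40 tests (20 comparisons for each gene), 13 were called, and these 13 stayed called, in the same direction, under all 8 alternatives that kept every library: pseudocounts of 0.25 and 5, no filter, a mean of at least 5 FPKM, median-of-ratios scaling, the replicate block, 1 fit over all kinds, and no trend. Median-of-ratios scaling moved the all-gene median by up to 0.16 and no change of Irf4 or Irf8 by more than 0.18. The replicate block brought 9 further results past the threshold. Among replicated comparisons these were Irf8 in new RNA at 1 h (1.60), from 1 to 4 h Irf4 (0.90) and Irf8 (1.11) in new RNA, and Irf8 in footprints at 1 h (1.64) and from 1 to 4 h (1.06). One fit over all kinds brought Irf4 at 2 h past the threshold in new RNA (limma adjusted p = 0.0303) and total RNA (0.0390), and a fit with no trend did so in total RNA (0.0499). With a pseudocount of 5, new RNA minus footprints of Irf8 at 4 h was -0.18 in place of 0.01, since a larger pseudocount shrinks low values more.

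Leaving out 1 library at a time kept 21 of 40 checks of called results past the threshold. The changes then ranged, in new RNA, from 0.69 to 1.56 (Irf4) and 0.79 to 2.42 (Irf8) at 1 h, 1.58 to 2.46 and 2.48 to 2.94 at 4 h, and 0.59 to 1.20 and 0.29 to 1.93 from 1 to 4 h. In total RNA at 4 h they ranged from 2.08 to 2.68 and 2.19 to 2.40. In footprints they ranged from 0.39 to 1.11 and 1.30 to 1.99 at 1 h, 2.28 to 2.99 and 2.67 to 2.74 at 4 h, and 1.74 to 2.04 and 0.71 to 1.41 from 1 to 4 h. The differences between kinds of library ranged from -0.10 to 0.61 and 0.31 to 0.52 (footprints minus total RNA), -0.80 to 0.079 and 0.19 to 0.65 (new minus total RNA), -1.05 to -0.18 and -0.23 to 0.24 (new RNA minus footprints, 4 h), and -0.060 to 0.82 and -0.86 to 0.78 (the same, 1 h). The 95% interval of each of these differences spans 0 with all libraries.

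The number of genes called over the whole table, on which the shares of all genes rest, moved by more than 1.5 times. With the replicate block it went from 17 to 986 in new RNA at 1 h, 3089 to 5445 at 4 h and 2473 to 5022 from 1 to 4 h, from 1224 to 3618 in total RNA at 4 h, and in footprints from 13 to 183 at 1 h, 2326 to 4474 at 4 h and 1310 to 3422 from 1 to 4 h. One fit over all kinds gave 112 in new RNA at 1 h, 2051 in total RNA at 4 h, and 107 and 2195 in footprints at 1 h and from 1 to 4 h, and a pseudocount of 5 gave 7 and 1 at 1 h in new RNA and footprints. Without 1 library the count was 1096 to 2992 in new RNA at 4 h (lowest without 4sU 0 h replicate 2) and 578 to 2448 from 1 to 4 h (4sU 1 h replicate 2), and 91 to 719 in total RNA at 4 h (Total 4 h replicate 1). In footprints it was 503 to 1259 at 4 h and 0 to 133 from 1 to 4 h (both lowest without RP 4 h replicate 1). Depth is unknown for 18 libraries.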
